A study of Mus musculus with 8 samples.

Results

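The transcripts of 43 imprinted genes were followed in mouse embryonic stem cells (ESCs) under 4 culture conditions. The genes were taken from a fixed list of symbols, and all 43 had a value in each of the 8 samples, out of 20278 genes listed in any sample. They lie in 10 imprinted clusters and at 9 places where only a single gene of the list lies. All samples were N33 ESCs, a single line of the inbred strain that the labels give as C57BL/6 and the study's methods as C57BL/6J, grown with 1000 U/ml leukemia inhibitory factor (LIF), and each condition had 2 replicates. Cells labelled −F here grew in medium with 20% fetal bovine serum on gelatin without feeders. F cells had the same serum medium on mouse embryonic fibroblasts (MEFs) whose division had been stopped with mitomycin C. F2i cells had serum, feeders and 2i, the pair of inhibitors CHIR99021 (against Gsk3β) and PD0325901 (against Mek). NB2i cells grew without serum and without feeders, in N2B27 medium on poly-L-ornithine and laminin, with CHIR99021 at 3 μM and PD0325901 at 1 μM. Per the labels, feeders had been removed from the F and F2i samples by repeated differential adherence. The RNA was measured in bulk, where fewer cells of a type and less RNA per cell cannot be told apart.

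Imprinted genes are transcribed mainly from the copy inherited from a given parent. The choice is kept by DNA methylation laid down in the egg or sperm at an imprinting control region, which often governs a cluster of neighbouring genes and a long noncoding RNA. Many paternally expressed imprinted genes promote growth of the embryo and placenta, and many maternally expressed genes restrain it. Imprints are protected while the rest of the genome loses methylation after fertilisation, in part by the zinc finger protein ZFP57 with its partner TRIM28. ESCs, and ESCs in 2i above all, are known for low or drifting methylation. The reads here gave the sum over both parental copies, because an inbred line has no sequence differences to separate them. "Paternal" and "maternal" below are the textbook assignments of the expressed copy and were not measured.

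ZFP57 recognises a short methylated motif, TGCCGC, which reads GCGGCA on the opposite strand. RefSeq promoter windows of 300 bases (250 before to 50 after a transcription start, assembly GRCm38.p6) were used for 34 of the 43 genes. These were 50 windows in all, and any window of Impact was left out of them. The motif, searched on both strands, was found in 11 of these 50 windows (22%), belonging to 10 genes, and in 11.6% of all 32851 windows. Nothing was left out of the larger set in this way, so these shares rest on sets chosen differently. Windows of 4 genes are printed as examples from those called when 2i was added to serum and feeders. Mest, Nnat and Peg3 were lower there and Plagl1 was higher. Windows of Magel2, Phlda2 and Rian, called there too, held no motif, and 1 of the 2 windows of Grb10 held it at 1 position. Peg10 and Cdkn1c, also called there, had no window. The other genes with the motif, Igf2, Zim1, Snrpn, Meg3, Mcts2 and Nap1l5, were not called in that comparison. A tie between the motif and the calls was not tested. Capitals mark the motif, each on the strand of the gene.
Mest, chr6:30737800-30738099, plus strand: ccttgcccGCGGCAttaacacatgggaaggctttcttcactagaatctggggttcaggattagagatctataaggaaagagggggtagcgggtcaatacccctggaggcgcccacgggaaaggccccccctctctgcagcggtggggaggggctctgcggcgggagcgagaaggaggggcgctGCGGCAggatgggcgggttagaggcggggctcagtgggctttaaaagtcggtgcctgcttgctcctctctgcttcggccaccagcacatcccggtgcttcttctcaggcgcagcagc
Nnat, chr2:157559828-157560127, plus strand: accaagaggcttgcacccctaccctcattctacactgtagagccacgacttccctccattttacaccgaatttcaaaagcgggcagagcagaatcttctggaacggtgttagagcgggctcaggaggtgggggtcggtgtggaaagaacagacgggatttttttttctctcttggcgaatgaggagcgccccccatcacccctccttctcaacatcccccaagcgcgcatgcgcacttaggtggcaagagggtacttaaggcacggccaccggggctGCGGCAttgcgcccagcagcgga
Plagl1, chr10:13090582-13090881, plus strand: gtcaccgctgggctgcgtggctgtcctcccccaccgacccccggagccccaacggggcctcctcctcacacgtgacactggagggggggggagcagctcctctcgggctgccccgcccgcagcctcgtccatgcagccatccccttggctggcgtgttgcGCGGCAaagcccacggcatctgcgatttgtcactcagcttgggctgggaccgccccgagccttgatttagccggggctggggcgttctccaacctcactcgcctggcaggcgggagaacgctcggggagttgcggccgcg
Peg3, chr7:6730370-6730669, minus strand: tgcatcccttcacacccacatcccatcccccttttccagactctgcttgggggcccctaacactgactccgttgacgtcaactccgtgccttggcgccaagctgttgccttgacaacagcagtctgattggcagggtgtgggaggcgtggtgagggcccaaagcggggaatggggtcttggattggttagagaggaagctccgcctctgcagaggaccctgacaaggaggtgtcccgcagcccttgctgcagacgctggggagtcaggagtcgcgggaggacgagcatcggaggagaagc
The Mest window printed, 1 of 3 for this gene, held the motif at 2 positions, and those of Nnat and Plagl1 each held it at 1. Another Mest window, chr6:30737803-30738102, overlaps the printed one and holds the same 2, so both count among the 11. The remaining one, chr6:30733256-30733555, held none. The Peg3 window held none, and it shared 263 bases with the window of Usp29, which is transcribed in the other direction. Numbers of CpG were 17 in Mest, 17 in Nnat, 26 in Plagl1 and 13 in Peg3, against a median of 7 over all windows.

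Libraries were of nearly equal depth, with 20129641 to 20664488 expected counts per sample, and 42 of the 43 genes had enough counts to be tested (Rtl1, at 0.02 to 0.09 FPKM, had not). FPKM scales the reads of a gene by transcript length and by library depth, so levels can be compared between genes. A mean of at least 1 FPKM in some condition was reached by 35 genes. All 11 ESC markers (Pou5f1, Nanog and others) were above 1 FPKM in every condition. Of 20 fibroblast markers, the summed level was 53.4 and 52.5 FPKM in −F, 352 and 364 in F, 814 and 802 in F2i, and 22.7 and 21.5 in NB2i. A short list of 5 defining ones (Col1a1, Col1a2, Col3a1, Postn and Thy1) summed to 8.15 and 7.86 FPKM in −F, 175 and 184 in F, 510 and 499 in F2i, and 1.72 and 1.22 in NB2i, where Postn was at 0 in both samples. Fibroblast transcripts were thus present in F and still more in F2i, and NB2i against −F is the comparison with the fewest fibroblast transcripts on both sides.

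Transcripts of the 43 genes were on the whole lowest in NB2i. The median level of the 43 genes was 5.41 FPKM in −F, 6.66 in F and 6.57 in F2i, and 1.88 in NB2i. The lowest mean of a gene was found in NB2i for 23 genes, in −F for 14, and in F and F2i for 3 each. Over the 4 conditions, 29 of the 42 tested genes had a range of at least 2-fold. These medians and counts were not taken over all genes, so they describe this list only.

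Below, a gene is called changed where edgeR's quasi-likelihood test gave a Benjamini-Hochberg adjusted p under 0.05 and the fold change was at least 2. Values with ± are log2 fold changes and their standard errors (SE), from 2 samples a condition. In F against −F, 7 imprinted genes were called higher (16.7% of 42, against 5.59% of all 15287 tested genes) and 0 lower (1.65% of all genes). DESeq2 gave 5 higher and also 0 lower, and edgeR without the filter on low counts gave 5 higher and 0 lower. By edgeR, 10 of the 42 imprinted genes were lower at an unadjusted p under 0.05 (22.4% of all genes were), each by less than 2-fold. The 7 higher genes were Meg3, Rian, Dlk1, Mirg, Plagl1, Airn and Peg13. Meg3, Rian, Dlk1 and Mirg are neighbours in the Dlk1-Meg3 cluster and are not independent. The calls of Mirg and Airn were lost when single samples were left out, as given below. In F2i against F, 2 were higher (6.44% of all genes) and 8 lower (19% of 42, against 7%). In NB2i against F2i, 2 were higher (6.01% of all genes) and 15 lower (35.7%, against 13.3%). H19 was among those that fell there, and Phlda2 and Slc22a18 were the higher genes. In NB2i against F, 2 were higher (10% of all genes) and 21 lower (50%, against 17.6%). In NB2i against −F, 4 were higher (9.52%, against 11.1%) and 20 lower (47.6%, against 16.1%). In each comparison with 2i the share of these 42 genes called lower was thus above that of all genes. Their share called higher was not. A second list, of 24 tested imprinted genes, is given at the end. Its share called higher was 20.8% in F2i against F (6.44% of all genes) and 20.8% in NB2i against −F (11.1%). It was 4.17% in NB2i against F2i (6.01%). Its share called lower was 16.7% in F2i against F (7%) and 16.7% in NB2i against F2i (13.3%). For NB2i it was 25% against F (17.6%) and 20.8% against −F (16.1%). Both lists were chosen with earlier results of these data known. Of the 42 genes, 28 were called at least once and 14 never, and the same was not counted over all genes. With 2 samples a condition, a permutation test of a single gene can give no p below 0.333, so that the calls rest on the spread shared over genes.

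**Figure D1:**
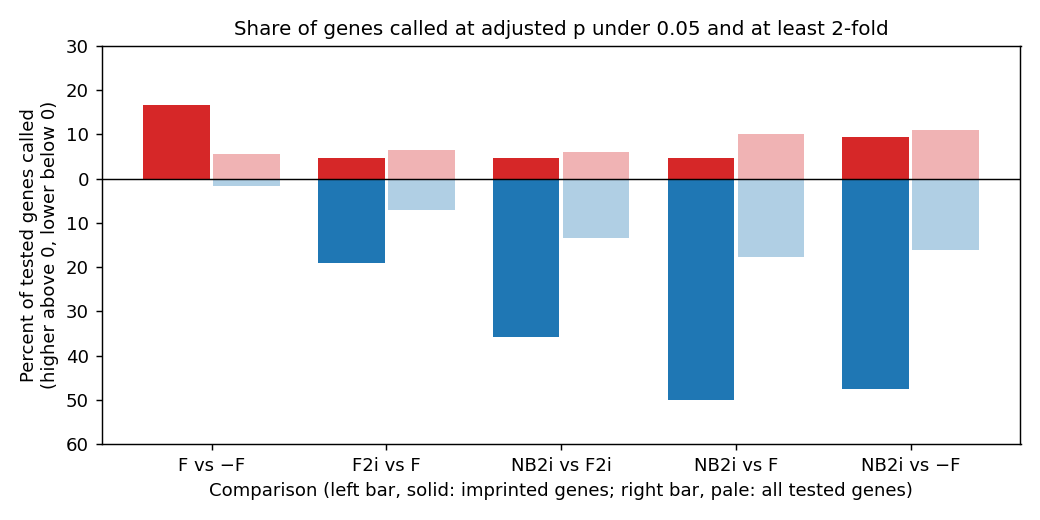
Percent of tested genes called higher (above 0) or lower (below 0) in each comparison, for 42 imprinted genes (solid bars) and all 15287 tested genes (pale bars). Lower calls reached 47.6% of imprinted genes in NB2i against −F and 16.1% of all genes.

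**Figure D2:**
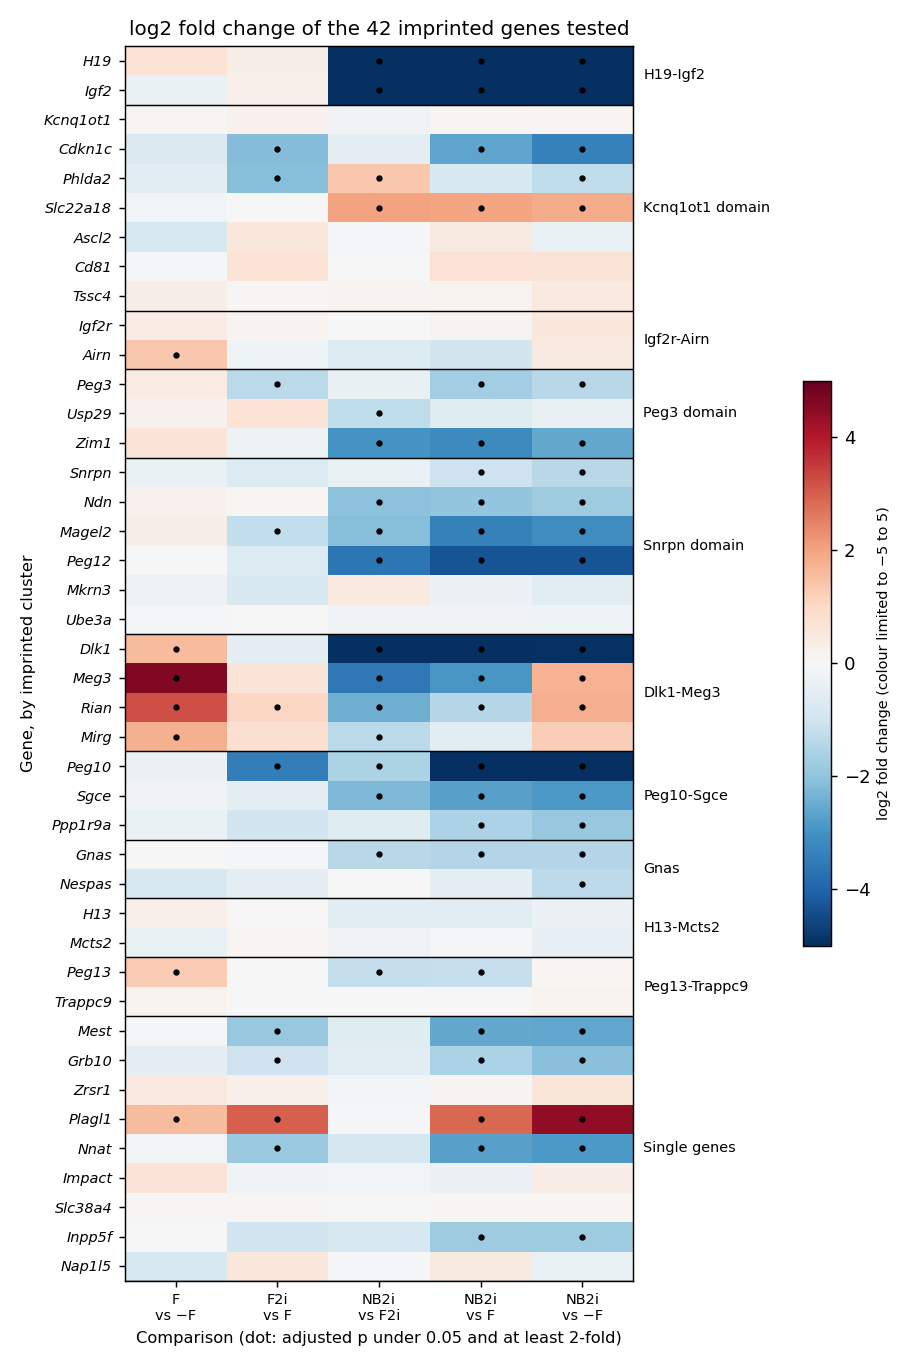
The log2 fold change of the 42 tested imprinted genes (lines, ordered by cluster) in 5 comparisons (columns), with a dot where the gene was called and the colour limited at −5 and 5. Blue fields prevail in the columns of NB2i, while Slc22a18 is red in all of them and Plagl1 in F2i against F and in NB2i against F and −F.

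The median log2 fold change of the imprinted genes was 0.03 in F against −F, −0.02 in F2i against F, −0.55 in NB2i against F2i, −0.96 in NB2i against F and −0.48 in NB2i against −F. Over all tested genes it stayed between −0.01 and 0.02. In the second list of imprinted genes the median for NB2i was −0.05 against −F, −0.17 against F and 0.06 against F2i, nearer to that of all genes. F2i against F and NB2i against −F have no sample in common, and both compare a culture with 2i with a culture without. Each of the 8 genes that fell in the former also fell in the latter (100% of 8 and 40.0% of 20). Over all tested genes, 79.8% of those lower in F2i against F were also lower in NB2i against −F. Genes shared in this way were 34.8% of all those lower in NB2i against −F. The 8 were Peg10, Mest, Nnat, Peg3, Magel2, Grb10, Cdkn1c and Phlda2. Both genes higher in F2i against F, Plagl1 and Rian, were higher in NB2i against −F too. So were 62.0% of all tested genes that were higher in F2i against F. The other genes lower in NB2i against −F were not called between F2i and F. In NB2i against −F the serum, the basal medium and the plate coating differed along with 2i and cannot be told apart.

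The H19-Igf2 cluster (chr7:142575529-142666816, mm10, GENCODE M21) was high in all serum cultures and nearly silent in NB2i. Igf2 encodes insulin-like growth factor 2, a paternally expressed growth factor, and H19 is a maternally expressed noncoding RNA that shares its enhancers. H19 was at 39.1 and 37.8 FPKM in −F, 61.7 and 59.97 in F, 73.1 and 70.7 in F2i and 0.53 and 0.58 in NB2i. Igf2 was at 54.95 and 50.6 FPKM in −F, 40.6 and 42.3 in F, 49.3 and 49.8 in F2i and 1.07 and 1.09 in NB2i. Both NB2i samples lay far below all 6 others for each gene. From −F to NB2i, H19 differed by −6.05 ± 0.096 (SE; edgeR adjusted p = 3.3e-22) on the log2 scale, 66.4-fold lower, and Igf2 by −5.56 ± 0.074 (SE; edgeR adjusted p = 4.0e-23), 47.3-fold lower. Both genes were abundant in −F, where fibroblast markers were low, and their differences between F2i and F were under 2-fold. Between −F and F the genes of the cluster went opposite ways by less than 2-fold, H19 by 0.68 ± 0.044 and Igf2 by −0.34 ± 0.044. The 8 primitive endoderm markers summed to 28.4 and 28.2 FPKM in −F, 45.1 and 47.5 in F, 37.7 and 36.1 in F2i, and 24.5 and 24 in NB2i. In NB2i against F2i 4 of the 8 were called lower (50%, against 13.3% of all genes) and 1 higher (12.5%, against 6.01%). Col4a1, a basement membrane collagen gene, differed by −5.26 ± 0.08 on the log2 scale. Lama1 rose from 6.88 FPKM in both F2i samples to 21.1 and 20.4 in NB2i. In NB2i against −F, 3 of the 8 were called lower (37.5%, against 16.1% of all genes) and 2 higher (25%, against 11.1%). The part of primitive endoderm cells or of feeder RNA in the levels of H19 and Igf2 was not tested. The ratio of Igf2 to H19 was 1.40 and 1.34 in −F, 0.658 to 0.706 in F and F2i, and 2.02 and 1.88 in NB2i.

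The Kcnq1ot1 domain lies next to it (chr7:142966829-143503150) and responded gene by gene. Its paternal noncoding RNA Kcnq1ot1, which silences the neighbouring paternal copies, stayed between 1.77 and 2.34 FPKM in all 8 samples and was not called in any comparison. Cdkn1c encodes the cell cycle inhibitor p57. It was at 21.3 and 22.2 FPKM in −F, 12.6 and 13.2 in F, 2.57 and 2.91 in F2i and 2.05 and 1.97 in NB2i. It thus fell in F2i and stayed low, with a difference of −2.18 ± 0.095 (SE; edgeR adjusted p = 2.4e-14) from F to F2i and of −3.36 ± 0.094 from −F to NB2i. Phlda2, a restrainer of placental growth, was at 94.96 and 90.7 FPKM in −F, 64.9 and 63.3 in F, 14.1 and 14.5 in F2i and 38.3 and 34.7 in NB2i. Unlike Cdkn1c it was lowest in F2i and 2.56-fold higher in NB2i than in F2i (1.36 ± 0.085 SE, edgeR adjusted p = 7.3e-12). Slc22a18, which encodes a membrane transporter, was at 2.85 and 2.61 FPKM in −F, 2.29 and 2.68 in F, 2.25 and 2.5 in F2i and 10.1 and 8.75 in NB2i. Only its NB2i samples stood out, and it was called higher in NB2i against each other condition (1.85 ± 0.13 against −F). So within a single domain, while Kcnq1ot1 was not called, neighbours fell, fell and partly recovered, or rose. Ascl2 (2.28 to 5.12 FPKM), Cd81 (114 to 189) and Tssc4 (13.6 to 20.0), further off in the domain, were never called.

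Phlda2 and Cdkn1c are used strongly in placenta, and the summed level of trophoblast markers was, like that of Phlda2, lowest in F2i. The 8 trophoblast markers summed to 191 and 185 FPKM in −F, 116 and 113 in F, 48.2 and 50.8 in F2i, and 93.7 and 91.2 in NB2i. Krt8, Krt18 and Tfap2c were the largest parts of this sum. Krt8 was at 59.9 and 58.9 FPKM in −F and 5.52 and 6.16 in F2i, Krt18 was at 78.2 and 74.3 FPKM in −F and 7.30 and 8.28 in F2i, and Hand1 fell from 6.07 and 5.16 FPKM in −F to 0.08 and 0.03 in NB2i. Other markers of the list rose or moved less. Gata3 was at 0.99 and 0.91 FPKM in F and 1.82 and 1.59 in F2i, Eomes was at 3.05 and 2.98 FPKM in −F and 5.67 and 5.68 in NB2i, and Tfap2c was at 30.4 to 47.5 FPKM over all samples. Cdx2 was highest in F2i, at 0.35 and 0.39 FPKM, and at 0.09 to 0.23 in the other conditions. It was called lower in NB2i against F2i (−1.67 ± 0.48). Elf5 was at 0 to 0.09 FPKM. The part of such cells in the levels of Phlda2, Cdkn1c and other imprinted genes was not tested.

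The Dlk1-Meg3 cluster (chr12:109452823-109749460) was the only cluster of the 10 with each tested gene called higher in F than in −F. Meg3, Rian and Mirg are maternally expressed noncoding RNAs of the cluster, and Dlk1 encodes a paternally expressed membrane protein of the Notch ligand type. Meg3 was at 0.5 and 0.51 FPKM in −F, 15.5 and 11.8 in F, 20.8 and 19.4 in F2i and 1.99 and 1.72 in NB2i. Rian was at 0.55 and 0.53 FPKM in −F, 5.0 and 4.79 in F, 9.91 and 9.84 in F2i and 1.88 and 1.69 in NB2i. Dlk1 was at 0.47 and 0.69 FPKM in −F, 1.75 in both F samples, 1.2 and 1.21 in F2i and 0.01 and 0.02 in NB2i. All 3 were higher in both F and both F2i samples than in −F, without overlap. Meg3 was 24.6-fold higher in F than in −F (4.62 ± 0.14 SE, edgeR adjusted p = 1.4e-16) and Rian 9.26-fold (3.21 ± 0.12), while Dlk1 differed by 1.60 ± 0.17. From F to F2i Rian rose by 1.05 ± 0.071, and Meg3 by 0.66 ± 0.079, under 2-fold. These increases ran beside the rise of the defining fibroblast markers from 8.15 and 7.86 FPKM in −F to 510 and 499 in F2i, and the part of feeder RNA in them was not tested. Of the 8 primitive endoderm markers, 5 were also called higher in F against −F (62.5%, against 5.59% of all genes). Gata6, a transcription factor gene of that lineage, was at 0.70 and 0.50 FPKM in −F and 1.98 and 1.83 in F. Their part was not tested either.

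In the feeder-free pair the genes of the cluster went opposite ways. In NB2i, where the fibroblast markers were below those of −F, Meg3 was 3.29-fold higher than in −F (1.72 ± 0.21 SE, edgeR adjusted p = 2.9e-07) and Rian 3.48-fold (1.80 ± 0.15). Dlk1 had 3 counts over both NB2i samples against 105 in −F, a ratio of 35.3-fold lower with a 95% interval of 11.7 to 174 that covers counting error only. Dlk1 also lay below F and F2i, where 313 and 214 counts were found. The ratio of Meg3 to Dlk1 was 1.06 and 0.739 in −F, 8.87 and 6.72 in F, 17.3 and 16.1 in F2i, and 199 and 86 in NB2i. Mirg reached 0.88 FPKM at most and Rtl1 0.09. The call of Mirg in F against −F (24 counts against 7, a ratio of 3.43, interval 1.44 to 9.44) was lost without F replicate 1 (adjusted p = 0.15) or −F replicate 2 (adjusted p = 0.23).

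**Figure D3:**
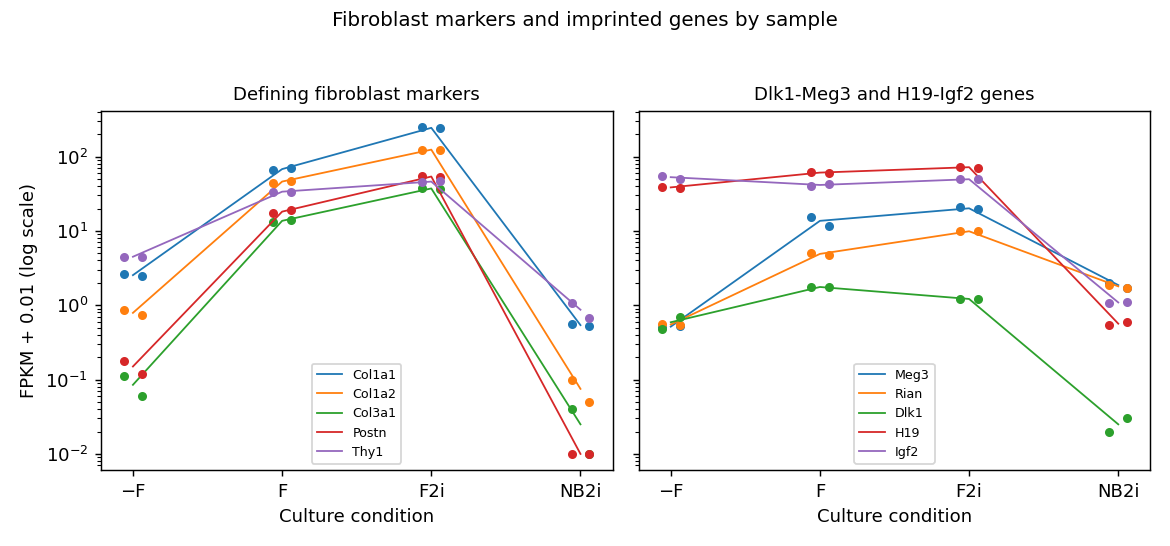
FPKM (plus 0.01, log scale) of 5 defining fibroblast markers (left) and of 5 imprinted genes (right) in each sample by culture condition, with lines through the condition means. Meg3 and Rian were high in F and F2i like the fibroblast markers. Both were higher in NB2i than in −F, where the markers ran the other way, and H19 and Igf2 were high in −F. The part of feeder RNA in these genes was not tested.

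Peg10 fell the most of the 42 tested genes in F2i against F. It is a paternally expressed gene derived from a retrotransposon, needed for the placenta, and its start lies 99 bases from that of Sgce, transcribed the other way (Peg10-Sgce cluster, chr6:4674350-5165661). Peg10 was at 97.4 and 94.2 FPKM in −F, 73.3 and 80.2 in F, 7.03 and 6.65 in F2i and 2.34 and 2.24 in NB2i. The F2i samples were 10.9-fold below F (−3.45 ± 0.055 SE, edgeR adjusted p = 2.3e-21), and the NB2i samples 39.9-fold below −F (−5.32 ± 0.063 SE, edgeR adjusted p = 6.4e-24). Sgce, which encodes epsilon-sarcoglycan of the muscle membrane complex, was at 4.79 and 4.89 FPKM in −F, 4.06 and 4.33 in F, 3.09 and 2.82 in F2i and 0.68 and 0.52 in NB2i. It kept most of its level in F2i (−0.47 ± 0.13 against F) and fell in NB2i (−2.23 ± 0.2 against F2i). The ratio of Peg10 to Sgce was 18.0 to 20.3 in −F and F, 2.28 and 2.36 in F2i, and 3.44 and 4.31 in NB2i. These neighbours therefore changed by unequal amounts at both steps. Ppp1r9a, a maternally expressed gene for an actin-binding protein of neurons further along the cluster, was at 5.38 and 5.44 FPKM in −F, 4.33 and 4.2 in F, 2.12 and 2.19 in F2i and 1.38 and 1.42 in NB2i. It differed by −1.89 ± 0.069 from −F to NB2i, and by −0.95 ± 0.067 from F to F2i, just under 2-fold.

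The Peg3 domain (chr7:6671269-6967219) has a similar pair of opposed genes, Peg3 and Usp29, whose starts are 147 bases apart. Peg3, a zinc finger protein gene known for its role in maternal behaviour and growth, was at 35.2 and 44.96 FPKM in −F, 50.7 and 50.5 in F, 19.9 and 18.6 in F2i and 15.3 and 14.4 in NB2i. The 4 samples with 2i lay below all 4 without. The difference was −1.36 ± 0.073 (SE; edgeR adjusted p = 8.7e-13) in F2i against F and −1.37 ± 0.075 in NB2i against −F. Usp29 stayed at 0.23 to 0.60 FPKM and did not follow, with 0.68 ± 0.18 in F2i against F and a call only in NB2i against F2i (−1.26 ± 0.19). Zim1, the maternally expressed gene of the domain, was at 0.21 to 0.40 FPKM in the serum cultures and had 5 counts in NB2i against 32 in −F, 6.45-fold lower with an interval of 2.49 to 21.2.

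The Snrpn domain (chr7:59228750-62464510), whose human counterpart is lost or silenced in Prader-Willi and Angelman syndromes, had 4 of its 6 genes called lower in NB2i against −F. Snrpn, a gene for a small nuclear ribonucleoprotein that shares exons with Snurf, was at 82.3 and 80.5 FPKM in −F, 59.5 and 66.3 in F, 36.5 and 39.3 in F2i and 29.97 and 29.9 in NB2i. It declined from −F onward and the drop from −F to NB2i was −1.38 ± 0.054 (SE; edgeR adjusted p = 1.0e-15). Against F it was 2.04-fold lower, a call lost without F replicate 2 (−0.94, adjusted p = 6e-12). Ndn, encoding the growth suppressor necdin, was at 5.98 and 5.53 FPKM in −F, 6.21 and 7.11 in F, 6.89 and 6.78 in F2i and 1.71 and 1.54 in NB2i. F and F2i overlapped, the −F samples lay just below them, and NB2i stood below all 6, with a difference of −1.76 ± 0.14 from −F. Peg12, a gene of the domain's distal end, was at 2.09 and 1.81 FPKM in −F, 1.88 and 1.97 in F, 1.09 and 1.22 in F2i and 0.09 in both NB2i samples. Its fall from −F to NB2i, 19.8-fold (−4.31 ± 0.28 SE, edgeR adjusted p = 7.3e-12), was the deepest of the domain among genes above 1 FPKM. Magel2, between Ndn and Peg12, had 6 counts in NB2i against 55 in −F, 9.24-fold lower (interval 3.98 to 26.3). Mkrn3 (0.88 to 2.22 FPKM) and the ubiquitin ligase gene Ube3a (13.6 to 18.4), the maternally expressed member, were never called. The 4 fallen genes are paternally expressed, as is Mkrn3.

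**Figure D4:**
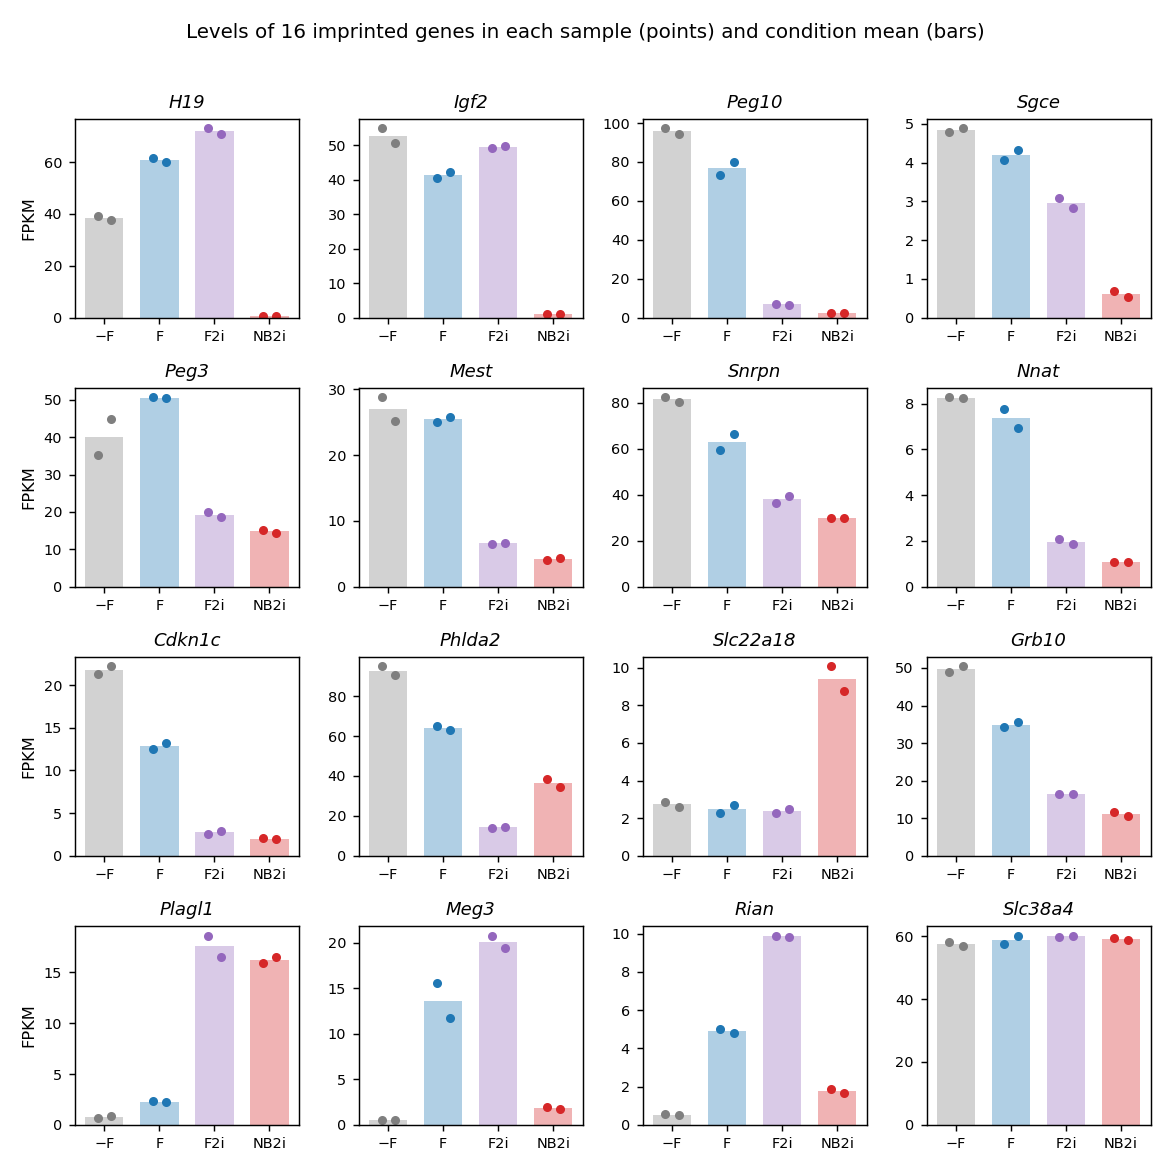
FPKM of 16 imprinted genes in the 2 samples of each culture condition (points) and the condition means (bars), each panel with its own axis from 0. Most genes had their lowest bars in F2i and NB2i, Plagl1 was highest in F2i and NB2i, Slc22a18 in NB2i, and Slc38a4 lay at 57.0 to 60.2 FPKM in all 8 samples.

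Plagl1 went the other way. It encodes a zinc finger factor that restrains proliferation and, as background, is known to act on other imprinted genes. Plagl1 was at 0.72 and 0.83 FPKM in −F, 2.34 and 2.22 in F, 18.6 and 16.5 in F2i and 15.9 and 16.5 in NB2i. Its order was −F below F below F2i and NB2i, and the last conditions did not differ beyond the test (−0.11 ± 0.057 SE, edgeR adjusted p = 0.099). The rise was 7.91-fold from F to F2i (2.98 ± 0.075 SE, edgeR adjusted p = 1.9e-18) and 21.8-fold from −F to NB2i (4.44 ± 0.091 SE, edgeR adjusted p = 1.6e-20). It was 2.97-fold higher in F than in −F as well, beside the rise in fibroblast markers. The increase from −F to NB2i was found where those markers were lowest. The part of feeder RNA in the levels of Plagl1 was not tested.

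Among the other genes that stand alone, Mest, Nnat, Grb10 and Inpp5f were lower with 2i. Mest, a paternally expressed gene of the hydrolase family that serves as a standard marker of imprinting, was at 28.8 and 25.3 FPKM in −F, 25.01 and 25.9 in F, 6.44 and 6.69 in F2i and 4.07 and 4.37 in NB2i. The step from F to F2i was −1.91 ± 0.073 (SE; edgeR adjusted p = 3.0e-15), and NB2i lay 6.04-fold below −F. Nnat, a small membrane protein gene of developing brain, was at 8.28 and 8.23 FPKM in −F, 7.77 and 6.95 in F, 2.08 and 1.86 in F2i and 1.07 and 1.1 in NB2i. It differed by −1.86 ± 0.14 from F to F2i and by −2.86 ± 0.16 from −F to NB2i. Grb10 encodes an adaptor that damps insulin and growth factor signalling, from the maternal copy in most tissues and the paternal copy in brain. It was at 48.8 and 50.4 FPKM in −F, 34.2 and 35.6 in F, 16.5 in both F2i samples and 11.7 and 10.7 in NB2i. No 2 conditions overlapped, and NB2i was 4.23-fold below −F (−2.08 ± 0.05 SE, edgeR adjusted p = 2.0e-19). Inpp5f, a phosphoinositide phosphatase gene with an imprinted variant, was at 3.84 and 4.06 FPKM in −F, 3.9 and 3.84 in F, 2.11 and 1.73 in F2i and 1.16 and 1.05 in NB2i. Against F it was lower in F2i by 1.96-fold and not called, though it was called without F2i replicate 1 (−1.12), and from −F to NB2i it differed by −1.77 ± 0.11.

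At the Gnas locus (chr2:174281237-174346744), which encodes the stimulatory G protein alpha subunit and, from upstream promoters, imprinted variants, Gnas itself was called lower only in NB2i. Its transcripts were at 178 and 165 FPKM in −F, 173 and 166 in F, 154 and 160 in F2i and 59.5 and 57.6 in NB2i. The 3 serum conditions were within 1.06-fold of their neighbours, and NB2i was 2.75-fold below −F (−1.46 ± 0.046 SE, edgeR adjusted p = 1.7e-17). Nespas, the antisense transcript of the locus, was at 3.51 and 3.64 FPKM in −F, 2.04 and 1.95 in F, 1.35 and 1.46 in F2i and 1.42 and 1.32 in NB2i. It was highest in −F and fell by 1.31 ± 0.14 to NB2i. As no source used here states that the library kept strand, reads of overlapping antisense transcripts such as Nespas, Airn and Kcnq1ot1 cannot be told apart from those of their partners.

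The genes never called covered a wide range of levels. Slc38a4, an amino acid transporter gene of placenta and liver, kept to 57.0 to 60.2 FPKM in all samples. Trappc9 was at 13.3 to 16.1 FPKM, H13 at 6.30 to 11.3, Mcts2 at 15.6 to 26.0, Impact at 23.4 to 37.1, Zrsr1 at 3.29 to 5.48, and Nap1l5 at 0.13 to 0.36. Igf2r, the maternally expressed receptor that clears Igf2, rose by less than 2-fold from 14.8 and 15.3 FPKM in −F to 20.99 and 20.6 in NB2i (0.54 ± 0.043 SE, edgeR adjusted p = 3.0e-10). Its antisense RNA Airn was at 0.25 to 0.60 FPKM, and the call of Airn in F against −F (adjusted p = 0.044) was lost when any of the 4 samples compared was left out. Peg13, at 0.27 to 0.76 FPKM, was higher in F and F2i than in both feeder-free conditions, as the fibroblast markers were, and the part of feeder RNA in it was not tested.

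Genes of both parental groups moved. In NB2i against −F, 13 of 24 tested paternal genes were lower and 1 was higher, and of 16 maternal genes 5 were lower and 3 higher (background 16.1% lower and 11.1% higher). The median log2 fold change was −1.34 for the paternal and −0.02 for the maternal genes. Against F, NB2i gave −1.09 and −0.55, and against F2i it gave −0.66 and −0.31. For F2i against F the medians were −0.33 and 0.02. In F against −F the medians were 0.02 and 0.22. Genes of a cluster share a control region and are not independent, so the difference between the parental groups was given no test. The groups are textbook assignments, and whether these cells used a single copy of each gene was not measured.

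A list of 24 genes that write, read or protect imprints was examined beside them. In F2i against F, 3 were called lower (12.5%, against 7% of all genes), and 7 others rose and 7 fell by less than 2-fold. In NB2i against −F, 5 were called lower (20.8%, against 16.1%) and 1 higher (4.17%, against 11.1%), while 8 others rose and 8 fell by less than 2-fold, with a median log2 fold change of −0.24. Dnmt3a, the methyltransferase gene that sets imprints in germ cells, was at 36.6 and 38.4 FPKM in −F, 41.4 and 43.2 in F, 7.91 and 7.75 in F2i and 2.96 and 2.9 in NB2i. Dnmt3l, the cofactor gene, was at 274 and 272 FPKM in −F, 166 and 162 in F, 77.6 and 79.6 in F2i and 8.01 and 8.55 in NB2i. From −F to NB2i Dnmt3a differed by −3.52 ± 0.053, Dnmt3l by −4.98 ± 0.055 and Dnmt3b, a further methyltransferase gene, by −3.01 ± 0.045. Dppa3, whose product protects the maternal genome from demethylation in the zygote, came down from 69.3 and 67.7 FPKM in −F to 28.1 and 28.4 in NB2i. Tet3, which encodes an oxidase of methylcytosine, came down from 1.31 and 1.21 FPKM to 0.53 and 0.55. Dnmt1, Uhrf1 and Zfp57, which maintain imprints, were highest in NB2i. Dnmt1 was at 65.2 and 70.9 FPKM in −F, 70.8 and 71.8 in F, 69.8 and 67.99 in F2i and 87.9 and 84.7 in NB2i, and its partner Uhrf1 rose from 118 and 124 FPKM in −F to 237 and 230 in NB2i (1.02 ± 0.043 SE, edgeR adjusted p = 3.5e-15). Zfp57 was at 131 and 126 FPKM in −F and 185 and 189 in NB2i, an increase of 0.64 ± 0.041 that is under 2-fold. Trim28 was not called, at 405 to 497 FPKM.

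**Figure D5:**
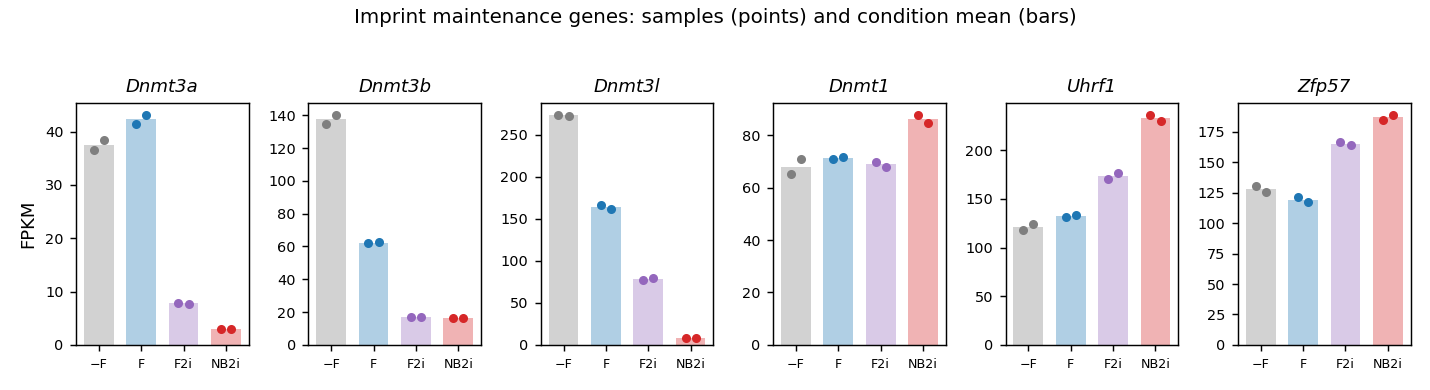
FPKM of 6 genes that set or maintain DNA methylation imprints in the 2 samples of each culture condition (points) and the condition means (bars), each panel with its own axis from 0. The bars of Dnmt3a, Dnmt3b and Dnmt3l are lower in F2i and NB2i than in −F and F, and those of Dnmt1, Uhrf1 and Zfp57 are highest in NB2i.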

How the data were processed

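Poly-A RNA of 8 samples was sequenced by the authors on a BGISEQ-500, mapped to mm10 with Bowtie2 and assigned to genes with RSEM. The authors deposited 1 table per sample with an expected count, which is RSEM's estimate of the reads of a gene (29.8% of values were not whole), and an FPKM, that estimate divided by transcript length and depth. Conditions and replicate numbers were taken from the sample titles, and the study describes the replicates as biological.

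After rounding, the counts were fitted in edgeR 4.0.16 (R 4.3.3; glmQLFit and glmQLFTest, TMM factors 0.977 to 1.028), with all 8 samples in a model of condition without block (4 residual degrees of freedom). The low count filter asked for 10 or more counts in 2 or more samples, and 15287 of 20278 genes passed. Benjamini-Hochberg adjustment ran over all genes tested, separately for each of 5 comparisons. Standard errors came from each estimate and its F statistic. DESeq2 1.42.0, limma 3.58.1 on log2(FPKM + 1) and log2(FPKM + 0.1), other filters, a replicate block, and each sample left out were alternatives. Imprinted genes called in at least 1 comparison with a mean of at least 1 FPKM were named with every value, and the others by range. The fit was tested on simulated counts. Ratios with few counts have exact conditional binomial intervals of 95%, which cover counting error only. Promoter windows came from RefSeq (GRCm38.p6). The members and the lists of clusters, parental copies, maintenance genes, other imprinted genes and markers were chosen with earlier results of these data known.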

Additional observations from a re-analysis of the deposited data

How the results depend on the processing

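Most results held under each alternative tried: of 122 alternative values for the 11 summary counts, 116 stayed within 1.5 times the reported count, and of 1155 alternative values for single genes 1144 kept their direction and their side of the thresholds. No result reversed. With at least 10 counts required in every sample, 35 imprinted genes could be tested and 4 instead of 7 were higher in F against −F. With limma on log2(FPKM + 1), which pulls low genes toward 0, the counts were 2 higher in F against −F, 1 higher in F2i against F, 9 lower in NB2i against F2i and 2 higher in NB2i against −F. The 8 values of named genes that lost their 2-fold difference there belonged to Peg12, Dlk1, Meg3, Rian, Plagl1 and Nespas. With limma on log2(FPKM + 0.1), 1 was higher in F2i against F. Without any single sample, lower calls ranged from 8 to 9 in F2i against F, 13 to 15 in NB2i against F2i, 20 to 21 in NB2i against F and were 20 in NB2i against −F, and higher calls in F against −F ranged from 5 to 6. Replicate numbers did not pair the samples, with correlations of same-numbered deviations between −0.046 and 0.054 over 6 pairs of conditions. A replicate block gave 6 instead of 7 higher in F against −F, with the call of Airn lost, and left 20 lower in NB2i against −F. Depth limits the 8 genes under 1 FPKM, whose ratios rest on few counts. The study describes the replicates as biological, and its methods do not state how they were separated. The replicates measure only the spread between these samples.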

Other observations

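A second list of 31 imprinted genes outside the 43 had 24 genes with enough counts to be tested. In F2i against F, 5 were called higher (20.8%, against 6.44% of all genes) and 4 lower (16.7%, against 7%). In NB2i against −F, 5 were higher (20.8%, against 11.1%) and 5 lower (20.8%, against 16.1%). Dio3, the thyroid hormone deiodinase gene at the far end of the Dlk1-Meg3 cluster, was at 0.29 and 0.21 FPKM in −F, 1.22 and 1.15 in F, 15.98 and 17.5 in F2i, and 2.30 and 1.90 in NB2i. It differed by 3.86 ± 0.12 (SE, log2, edgeR adjusted p = 1e-16) from F to F2i, a larger step than that of Rian or Meg3 between the same samples. Like them, Dio3 was higher in NB2i than in −F and was called higher in F than in −F (2.25 ± 0.29). Its level was highest in F2i, as were the fibroblast markers, and the part of feeder RNA in it was not tested. Ddc, which encodes the decarboxylase of dopamine and serotonin synthesis and lies beside Grb10, was at 4.01 and 3.99 FPKM in −F, 3.89 and 3.34 in F, 11.1 and 10.2 in F2i, and 20.4 and 20.5 in NB2i, while Grb10 fell over the same conditions. Qpct rose from 0.74 and 0.97 FPKM in −F to 7.89 and 7.03 in NB2i, and Tspan32, in the Kcnq1ot1 domain, from 0.37 and 0.26 to 1.74 and 1.88.

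Genes of that list also fell. Sfmbt2, a polycomb protein gene imprinted in the placenta, was at 14.2 and 14.1 FPKM in −F, 8.46 and 9.31 in F, 2.17 and 1.99 in F2i, and 3.18 in both NB2i samples, with a trough in F2i as for Phlda2. Atp10a, next to Ube3a, came down from 4.80 and 5.35 FPKM in −F to 1.77 and 1.63 in NB2i, while Ube3a was not called. Osbpl5, in the Kcnq1ot1 domain, was at 1.91 and 2.14 FPKM in F2i and 0.39 and 0.35 in NB2i. Tnfrsf23 was at 1.40 and 1.47 FPKM in F and 2.25 and 1.89 in F2i but at 0.07 to 0.18 in the feeder-free conditions, beside the fibroblast markers, and the part of feeder RNA was not tested.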
